A study of Mus musculus with 28 samples.

Results

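A set of 43 cell cycle genes was read in tumors and cultured cells that carried or lacked KEAP1 and NRF2. The members were the rows of the deposited expression table whose gene symbol is on a list of 24 genes of mitosis, 14 genes of DNA replication and 5 regulators of the step from G1 to S phase. All 43 were found, each in 1 row, among 18509 rows with a symbol and 43143 rows in all. RNA sequencing covered 28 libraries in 7 groups of 4. The 12 libraries of cultured cells came from 3LL, a mouse Lewis lung carcinoma line, in its unedited form (WT), after CRISPR editing of Keap1 (KEAP1-KO), and after further editing of Nrf2 in KEAP1-KO cells (DKO). The 16 tumors grew for 10 days from these lines under the skin of male albino C57BL/6 mice that were 6 weeks old. In Experiment A each mouse carried a WT tumor on the left and a KEAP1-KO tumor on the right, and in Experiment B a KEAP1-KO tumor on the left and a DKO tumor on the right. Whether tumors with the same replicate number came from the same mouse is not given in the sources used here. Within an experiment, genotype and flank therefore cannot be told apart. KEAP1-KO lines were each grown from a single colony, and DKO lines likewise from KEAP1-KO cells. The study made more than one KEAP1-KO line, and which line gave which library is not given in the sources used here. Genotype and clone therefore cannot be told apart. The hosts kept their own immune and stromal cells, which the tumor libraries also hold. Nothing in the sources says that the 4 libraries of a cell group came from separate cultures, and p-values measure the spread between these libraries only.

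KEAP1 marks the transcription factor NRF2 for degradation, and cells without KEAP1 hold active NRF2, which binds antioxidant response elements in DNA. Dividing cells switch on replication genes at the G1/S step, largely through E2F factors once cyclin D and cyclin E kinases have relieved RB, and mitotic genes later, in G2, largely through NF-Y and the MuvB complex with B-MYB and FOXM1, after the DREAM complex has kept them off in resting and G1 cells. The CDK inhibitor p21, encoded by Cdkn1a, restrains both waves. In tumors, transcripts of these genes are commonly read as a measure of how many cells are cycling.

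The value of a gene is log2(normalized count + 4), with a floor of 2 at no reads, and a difference is the difference between 2 group means on that scale, which understates the change of genes with few reads. The row that carries a gene's symbol has the ID of the gene for 7 members, namely Birc5, Ccnb2, Nusap1, Ube2c, Ccne1, Cdkn1a and E2f1. For the others it has the ID of a transcript. By type this is a retained intron for 20, a processed transcript for 7, a transcript subject to nonsense-mediated decay for 5 and a protein-coding transcript for 4. Whether such a row holds that transcript alone or a sum over the gene is not given in the sources used here. A mean above 11 was found for 202 of 10089 transcript rows with a symbol and for 8 of 23932 without a symbol. There were 12 members with a mean of 2.34 to 4.92 over all libraries, close to the floor: Mki67, Ttk, Cenpf, Tpx2 and Cdca8 of mitosis, Mcm3, Mcm4, Mcm6, Cdc6, Cdt1 and Gins2 of replication, and Ccne2. Mki67, the proliferation antigen Ki-67, was at no reads in 10 of 28 libraries and never above 4.18, and Mcm3, a helicase subunit, was at no reads in 24. Few differences in these rows were called. Which row carries the symbol matters here, since transcripts without a symbol matched to the same genes reached means of 6.22 for Cenpf, 5.84 for Cdca8, 6.43 for Cdt1 and 5.9 for Gins2. The other 31 members had a mean of at least 5, and Kif20a, a motor of the spindle midzone, was at no reads in 3 libraries and between 4.93 and 8.15 in the others.

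Depth was 4222362 to 6048390 reads in the tumors and 5809005 to 7524293 in the cells. The edited gene matched the labels: Keap1 was 9.35 to 9.56 in WT cells, 7.30 to 7.65 in the edited cells, 8.78 to 8.98 in WT tumors and 7.13 to 7.86 in the edited tumors. Nqo1, an NRF2 target, was 12.31 to 12.54 in KEAP1-KO cells and 6.65 to 6.86 in DKO cells. The Nfe2l2 row, which has the ID of a processed transcript of the gene for NRF2, did not separate DKO from KEAP1-KO (adjusted p = 0.65 in cells, limma). Among the 12 edited tumors, the third KEAP1-KO tumor of Experiment A (replicate 3) had the highest mitosis score, 8.27, and counts of members and of further cell cycle genes that rest on it are also given without it. Because that tumor was picked by the score itself, leaving it out favors a larger fall. For the further genes and for the members shared with cells, counts without other single tumors are not given.

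The regulatory sequence just upstream of a gene's start is shown for 5 members that the results turn on. RefSeq promoters of the mouse build GRCm38.p6 were matched for 34 of the 43 members. Motifs were searched on both strands in the 250 bases before the start: the CHR element TTTGAA, the CCAAT box CCAAT bound by NF-Y, the E2F forms TTTGGCGC, TTTCCCGC, TTTCGCGC and TTTGCCGC, and the antioxidant response element TGACNNNGC. Matches could overlap. The 160 bases before the start are printed 5′ to 3′ on the strand of the gene, with motif matches of either orientation in capitals.
Ube2c (chr2:164769769-164769928, plus strand): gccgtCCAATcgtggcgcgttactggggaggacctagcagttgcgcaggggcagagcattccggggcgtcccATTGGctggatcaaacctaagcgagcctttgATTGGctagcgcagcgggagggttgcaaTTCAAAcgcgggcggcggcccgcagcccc
Cdk1 (chr10:69352913-69353072, minus strand): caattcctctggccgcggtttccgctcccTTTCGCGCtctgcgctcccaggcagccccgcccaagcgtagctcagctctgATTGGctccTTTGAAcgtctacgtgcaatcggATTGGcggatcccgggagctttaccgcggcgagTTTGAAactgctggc
Ccnb1 (chr13:100786487-100786646, minus strand): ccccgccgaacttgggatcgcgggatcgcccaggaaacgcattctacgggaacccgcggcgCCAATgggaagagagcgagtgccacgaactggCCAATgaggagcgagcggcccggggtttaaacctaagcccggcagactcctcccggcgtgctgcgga
Pcna (chr2:132253181-132253340, minus strand): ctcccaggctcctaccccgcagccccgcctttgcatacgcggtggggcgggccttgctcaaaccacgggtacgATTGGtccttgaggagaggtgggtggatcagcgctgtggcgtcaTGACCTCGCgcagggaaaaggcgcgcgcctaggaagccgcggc
Mcm5 (chr8:75109349-75109508, plus strand): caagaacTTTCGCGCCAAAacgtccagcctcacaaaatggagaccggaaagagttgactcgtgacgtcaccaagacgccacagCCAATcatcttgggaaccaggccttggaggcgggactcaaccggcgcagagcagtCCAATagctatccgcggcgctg

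In the Ube2c stretch, 3 CCAAT boxes precede 1 CHR element, the arrangement known from late cell cycle genes, and the Cdk1 stretch holds 2 CHR elements, 2 CCAAT boxes and 1 E2F match. Ccnb1 shows 2 CCAAT boxes, Pcna 1 CCAAT box and 1 antioxidant response element match, and Mcm5 2 overlapping E2F matches and 2 CCAAT boxes. A CCAAT box was found for 17 of 20 mitosis genes (85.0%) and 8 of 11 replication genes (72.7%), against 37.5% of 27025 genes. CHR matches were found for 7 mitosis genes (35%) and 1 replication gene (9.09%), against 18.3% of all genes. E2F matches were found for 1 mitosis gene (5.0%) and 4 replication genes (36.4%), against 2.16% of all. The antioxidant response element was matched for 4 mitosis genes (20%) and 3 replication genes (27.3%), against 11.5% of all. None of the 3 G1/S regulators with a promoter, Ccne1, Cdkn1a and E2f1, held any of the 4 motifs in this window. These shares describe letters in the sequence and are no evidence of binding.

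The mitosis score of a library, the mean of its 24 mitosis values, was highest in WT cells and lower with each edit. The 4 WT cell libraries had scores of 9.23, 9.19, 9.5 and 9.31, the KEAP1-KO cells 9.04, 9.11, 9.14 and 9.01, and the DKO cells 8.70, 8.88, 8.78 and 8.95. The 3 groups of cells did not overlap. KEAP1-KO cells lay below WT cells by a difference of -0.23, and DKO cells below KEAP1-KO cells by a difference of -0.25. The latter was -0.11 as a median over the genes and -0.38 with a pseudocount of 0.4. In this score 5 of the 24 rows are close to the floor, and none of these was called between KEAP1-KO and DKO cells. Their means in KEAP1-KO and DKO cells were 5.668 and 4.252 for Ttk, 3.425 and 2.575 for Cdca8, and 2.912 and 2.575 for Mki67. They were 2.63 and 2.48 for Cenpf and 2.782 and 2.858 for Tpx2. In tumors the score was 8.18 ± 0.22 (SD, n = 4) for WT, 7.82 ± 0.33 (n = 4) for KEAP1-KO of Experiment A, 7.93 ± 0.19 (n = 4) for KEAP1-KO of Experiment B and 7.63 ± 0.28 (n = 4) for DKO. Each edited tumor group overlapped its neighbors, with WT tumors from 7.97 to 8.39 and KEAP1-KO tumors of Experiment A from 7.5 to 8.27, but DKO tumors (7.31 to 7.89) all lay below the WT tumors. Scores are given as a description, with no test.

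The replication score, the mean of 14 replication values, followed another order in culture. It was 7.82 ± 0.09 (SD, n = 4) in WT cells, 7.78 ± 0.16 (n = 4) in KEAP1-KO cells and 7.97 ± 0.05 (n = 4) in DKO cells. In tumors it was 6.99 ± 0.18 (n = 4) for WT, 6.75 ± 0.30 (n = 4) and 6.82 ± 0.26 (n = 4) for KEAP1-KO of Experiments A and B, and 6.80 ± 0.21 (n = 4) for DKO, and these groups overlapped. In this score 6 of the 14 rows are close to the floor. Over the 8 replication members with a mean of at least 5, KEAP1-KO cells lay at -0.29 relative to WT cells in place of -0.04, and DKO cells at -0.09 in place of 0.14. With a pseudocount of 0.4 these differences were 0.13 and 0.35, and as a median over the genes -0.42 and 0.01, so the order of the groups depends on the setting.

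**Figure D1:**
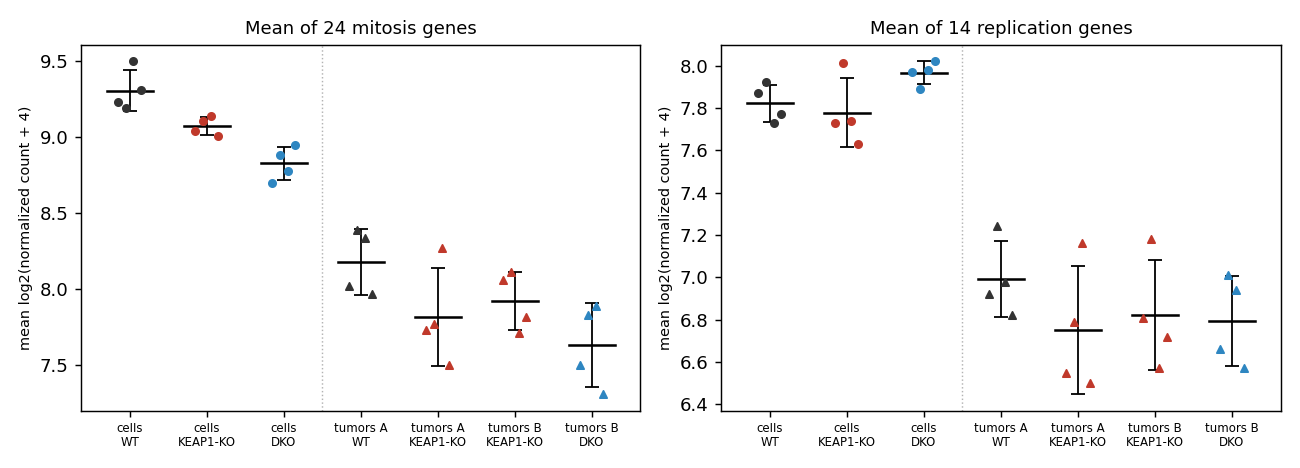
Mean log2(normalized count + 4) over the 24 mitosis genes (left) and the 14 replication genes (right), 1 point per library, for the 7 groups, with the group mean (line) and SD (bar). The tumor groups lie below the cell groups in both panels, and among cells the mitosis score steps down from 9.31 in WT to 9.07 in KEAP1-KO and 8.83 in DKO, while the replication score is 7.82, 7.78 and 7.97.

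The first comparison set KEAP1-KO against WT cells in culture. Of the 42 members tested, 21 were lower and 1 was higher in KEAP1-KO than in WT cells, and the median difference over the members was -0.27. Over all 29744 rows tested, 7.33% were lower and 8.13% were higher at an adjusted p under 0.05 (limma with Benjamini-Hochberg adjustment), with a median of 0.02. Among mitosis genes 13 of 24 fell and none rose, among replication genes 6 of 13 fell and none rose, and the remaining calls were Ccnd1 and E2f1, which fell, and Cdkn1a, which rose.

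Nusap1, which bundles and anchors spindle microtubules, had values of 11.19, 11.01, 11.08 and 10.99 in WT cells and 10.11, 10.17, 10.27 and 10.18 in KEAP1-KO cells. The groups lay well apart, and the difference was -0.88 (SE 0.05, adjusted p = 1.22e-07). Ube2c, the ubiquitin-conjugating enzyme that works with the anaphase-promoting complex, had 11.71, 11.56, 11.59 and 11.55 in WT and 10.68, 10.74, 10.75 and 10.86 in KEAP1-KO cells, a difference of -0.84 (SE 0.05, adjusted p = 1.29e-07). Ccnb1, which encodes cyclin B1, the partner that drives Cdk1 into mitosis, had 12, 11.74, 11.80 and 11.73 in WT and 10.91, 11.20, 11.14 and 11.18 in KEAP1-KO cells. Its difference of -0.71 (SE 0.07, adjusted p = 1.6e-05) went with smaller falls of its relatives Ccnb2 (-0.46) and Ccna2 (-0.29) and of Cdk1 itself (-0.38). Each WT library was above each KEAP1-KO library for all 4 of these cyclin and kinase genes.

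Several genes of the spindle checkpoint and kinetochore were called lower. Bub1b, which encodes the checkpoint protein BUBR1, had 11.36 to 11.45 in WT and 10.75 to 10.86 in KEAP1-KO cells, a difference of -0.62 (SE 0.04, adjusted p = 3.65e-07). Bub1, a checkpoint kinase, fell by 0.28, Cenpe, a kinetochore motor, by 0.43, and Ndc80, which couples kinetochores to microtubules, by 0.38. The checkpoint kinase Ttk and the kinetochore protein Cenpf, whose rows lie near the floor, were not called, with mean values of 4.43 and 3.48 in WT and 5.67 and 2.63 in KEAP1-KO cells (adjusted p = 0.471 and 0.289, limma). Of the chromosomal passenger complex, the kinase Aurkb fell by 0.56 and its partner Birc5, or survivin, by 0.24, while Kif23, a motor needed for cytokinesis, fell by 0.30. Mitotic genes of similar function were not called: the differences were -0.06 for Plk1, -0.13 for Aurka, -0.13 for Cdc20, -0.10 for Kif11 and 0.03 for Top2a, with adjusted p-values from 0.0547 to 0.911 (limma).

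Among replication genes in cells, Pcna, the sliding clamp of DNA polymerases, had 12.35, 12.12, 12.19 and 12.16 in WT and 11.38, 11.63, 11.59 and 11.66 in KEAP1-KO cells. This is a difference of -0.64 (SE 0.07, adjusted p = 2.45e-05) without overlap of the groups. The helicase subunit Mcm7 fell by 0.50, Tyms, which makes thymidylate, by 0.51, and Pole, the catalytic subunit of DNA polymerase epsilon, by 0.32. Smaller falls of 0.17 were called for Mcm5 and for Rrm1, the large subunit of ribonucleotide reductase, and the Mcm5 call was lost in 9 of 19 other settings. The helicase subunits did not move alike, since Mcm2 was 11.37 to 11.47 in WT and 11.43 to 11.54 in KEAP1-KO cells, a difference of 0.07 that was not called.

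**Figure D2:**
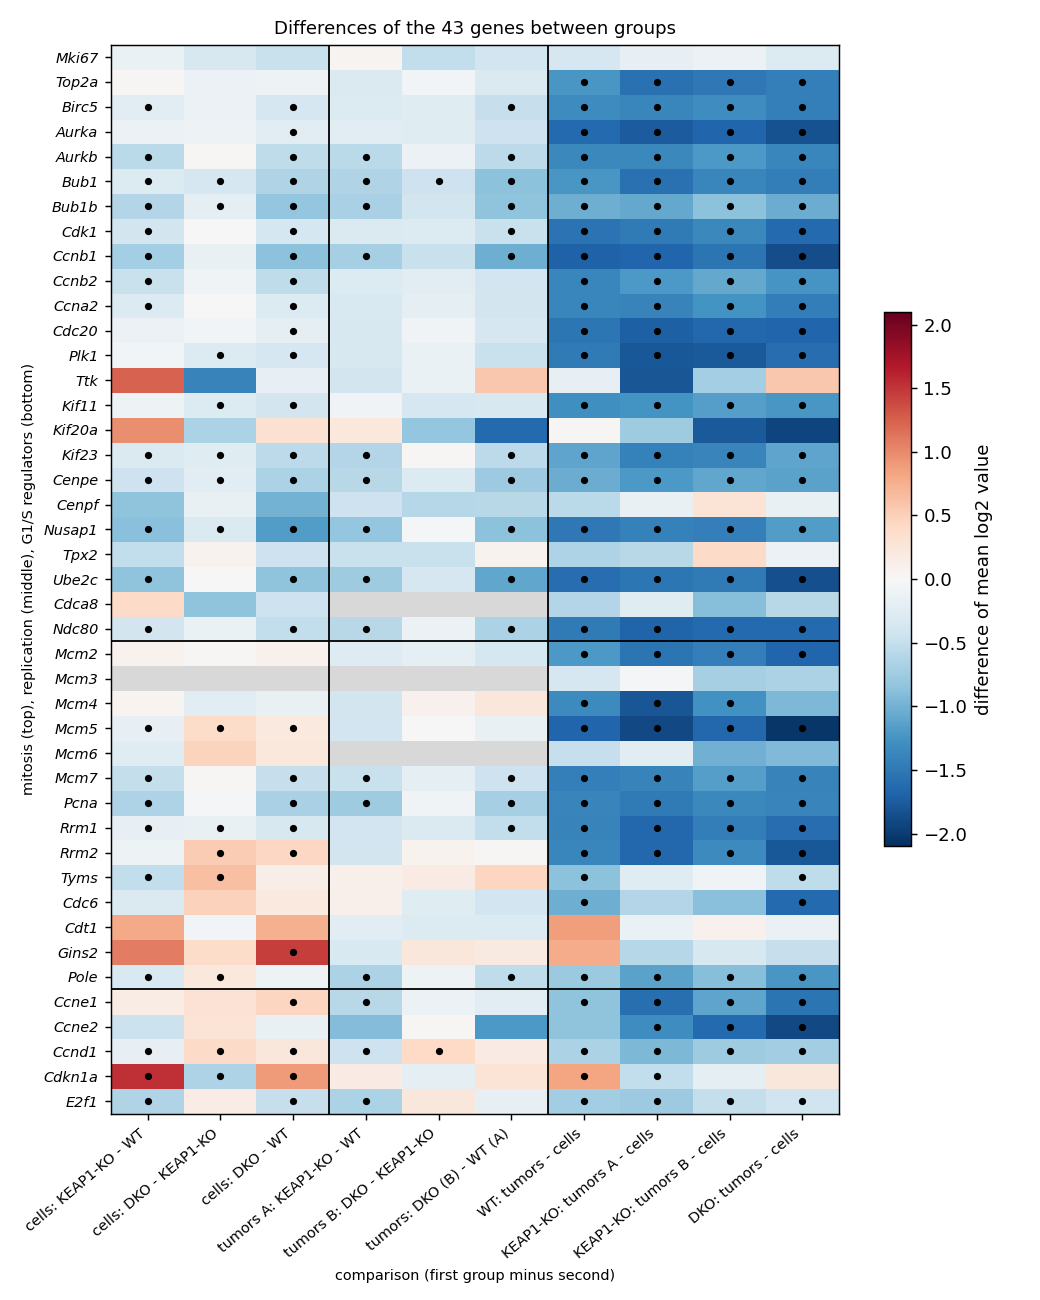
Difference of group means (color, log2 scale) for the 43 genes (rows) in 10 comparisons (columns), with a dot where the call passed an adjusted p of 0.05 and gray where the row was not tested. Blue dominates the columns of KEAP1-KO against WT in cells and in tumors (21 and 15 genes lower), and the 4 columns of tumors minus cells on the right (30 or 31 genes lower in each), while DKO against KEAP1-KO in cells is mixed (5 higher, 9 lower).

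The next comparison asked whether deleting NRF2 as well changes these genes in KEAP1-deleted cells. It shares the KEAP1-KO libraries with the comparison above. Of 42 members tested, 5 were higher and 9 lower in DKO than in KEAP1-KO cells, where 3.98% of all rows were higher and 4.85% lower, with median differences of -0.06 over the members and -0.03 over all rows. Among mitosis genes 7 of 24 fell and none rose, and among replication genes 4 of 13 rose and 1 fell. Whether the 2 kinds of gene differ was not tested. With a variance model that had no trend, 4 members were higher and only 2 lower.

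The mitosis genes that fell were Bub1 (-0.35), Nusap1 (-0.30), Plk1 (-0.29), Kif11 (-0.28), Kif23 (-0.25), Cenpe (-0.24) and Bub1b (-0.20). Bub1 was 11.09, 11.21, 11.21 and 11.22 in KEAP1-KO and 10.81, 10.92, 10.81 and 10.78 in DKO cells (SE 0.05, adjusted p = 0.00068). Kif11, the motor that pushes spindle poles apart, was 11.69 to 11.80 in KEAP1-KO and 11.43 to 11.51 in DKO cells. Ube2c and Ccnb1 stayed near their KEAP1-KO level, with 10.73 to 10.82 and 10.93 to 10.99 in DKO cells and differences of 0.00 and -0.15 that were not called.

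The replication genes that rose make DNA precursors or unwind and copy DNA. Tyms rose from 7.10, 7.13, 7.04 and 7.09 in KEAP1-KO to 7.58, 7.76, 7.82 and 7.71 in DKO cells, a difference of 0.63 (SE 0.08, adjusted p = 0.00031). Rrm2, the small subunit of ribonucleotide reductase, rose from 11.17, 11.40, 11.27 and 11.39 to 11.88, 11.79, 11.78 and 11.91, a difference of 0.53 (SE 0.05, adjusted p = 3.74e-05). Mcm5 rose by 0.38 (SE 0.05, adjusted p = 0.000251), to 12.07 to 12.09 in the 4 DKO libraries, and Pole by 0.22. Pcna was 11.44 to 11.58 in DKO cells, a difference of -0.04 from KEAP1-KO cells that was not called, and Mcm7 differed by 0.02. Rrm1 was the only replication gene called lower (-0.16), a call that 12 of 19 other settings did not keep.

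DKO cells were also set against WT cells, which compares both edits with none and shares its libraries with the comparisons above. Here 21 of 42 members were lower and 6 were higher, against 9.2% lower and 8.46% higher over all rows. The 17 mitosis genes called lower included Nusap1 (-1.18), Ccnb1 (-0.86), Ube2c (-0.84) and Bub1b (-0.81), and also Plk1 (-0.35), Kif11 (-0.38), Aurka (-0.23) and Cdc20 (-0.19), which KEAP1-KO cells had not moved past the threshold. Of the replication genes, Pcna (-0.68), Mcm7 (-0.48) and Rrm1 (-0.33) were lower and Rrm2 (0.43) and Mcm5 (0.21) higher. Tyms overlapped between the groups, with 7.45 to 7.78 in WT and 7.58 to 7.82 in DKO cells, a difference of 0.12 that was not called. Gins2, a helicase cofactor, was called higher by 1.45, but its row lies close to the floor (2.0 to 2.86 in WT and 3.30 to 4.93 in DKO cells), and the call was lost in 7 of 18 other settings.

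**Figure D3:**
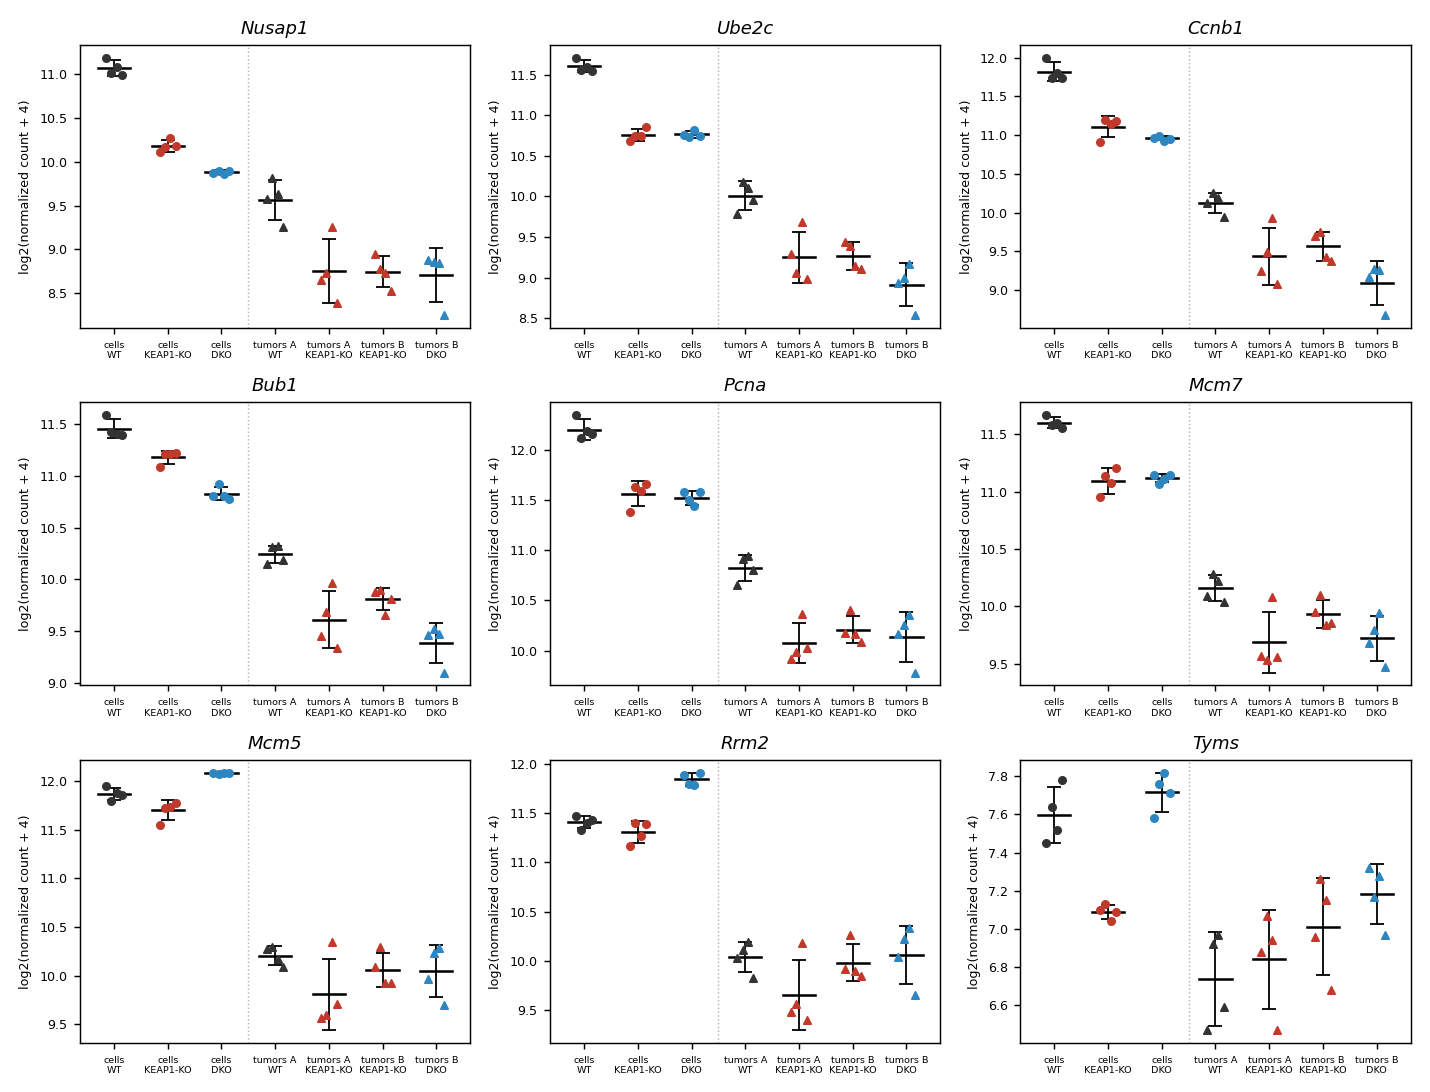
Values per library of 9 members, log2(normalized count + 4), in the 7 groups (circles, cells; triangles, tumors; line and bar, mean and SD). Nusap1, Ube2c, Ccnb1, Bub1, Pcna and Mcm7 step down from WT to KEAP1-KO in cells, whereas Mcm5, Rrm2 and Tyms are higher in DKO than in KEAP1-KO cells by 0.38, 0.53 and 0.63.

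Experiment A set KEAP1-KO against WT tumors. Of 40 members tested, 15 were lower and none was higher in KEAP1-KO than in WT tumors, against 7.49% lower and 5.61% higher among 34215 rows. The median difference was -0.40 over the members and -0.03 over all rows. Among mitosis genes 9 of 23 fell (Nusap1, Ube2c, Ccnb1, Bub1b, Bub1, Kif23, Cenpe, Ndc80 and Aurkb), as did 3 of 12 replication genes (Pcna, Pole and Mcm7) and 3 of 5 G1/S regulators (E2f1, Ccne1 and Ccnd1).

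Nusap1 was 9.57, 9.81, 9.63 and 9.26 in WT and 8.65, 8.73, 9.26 and 8.39 in KEAP1-KO tumors, a difference of -0.81 (SE 0.18, adjusted p = 0.00561). Ube2c was 9.78, 10.18, 10.11 and 9.96 in WT and 9.29, 9.06, 9.68 and 8.98 in KEAP1-KO tumors, a difference of -0.75 (SE 0.15, adjusted p = 0.00343). Ccnb1 was 10.12, 10.25, 10.19 and 9.94 in WT and 9.25, 9.49, 9.93 and 9.08 in KEAP1-KO tumors, a difference of -0.69 (SE 0.17, adjusted p = 0.0111). In all 3 genes the third KEAP1-KO tumor lay close to the lowest WT tumor and the other 3 lay well below. Pcna separated the groups more widely, with 10.65, 10.91, 10.94 and 10.80 in WT and 9.92, 9.99, 10.36 and 10.03 in KEAP1-KO tumors (difference -0.75, SE 0.12, adjusted p = 0.000476). Bub1 fell by 0.63 without overlap, and Pole by 0.66. Bub1b fell by 0.68, and its KEAP1-KO tumor replicate 3 (10.30) was above the lowest WT tumor (10.16).

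Of the 15 genes called lower in tumors, 14 (93.3%) were among the 21 called lower in cells, which is 66.7% of the latter. Over the 28192 rows in both fits, 48.6% of the 1676 lower in tumors were also lower in cells, which is 37.9% of the latter. With KEAP1-KO tumor replicate 3 left out, 19 of 22 members were shared, and the share over all rows in that setting is not given. These comparisons share no library. The tumors grew from the lines that were compared in culture, however, so a difference between clones apart from the edit can enter both. Ccne1 was called only in tumors, and Birc5, Ccna2, Ccnb2, Cdk1, Mcm5, Rrm1 and Tyms only in cells. The difference between the tumor effect and the cell effect was tested over all 37246 rows that entered that fit, where 3.88% were lower and 1.5% higher. It passed for 2 members, Cdkn1a and Ccne1, which are described with the G1/S regulators, and for no mitosis or replication gene. Leaving out replicate 3 of the KEAP1-KO tumors raised that count to 6, and 7 other single libraries, when left out, lowered it to 1.

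The count in tumors rested partly on single libraries. It was 9 without replicate 2 of the WT tumors and 9 without replicate 4 of the KEAP1-KO tumors, and 22 without replicate 3 of the KEAP1-KO tumors. Nusap1, Ube2c, Ccnb1, Bub1, Bub1b, Pcna, Pole, E2f1 and Ccnd1 were called in all 19 other settings, while Ndc80 lost its call in 12 and Cenpe in 9. In bulk samples, fewer cells of a type and less RNA per cell cannot be told apart. Markers of some other cells moved with the genotype of the tumors. The summed normalized count of 10 leukocyte markers in the tumors of Experiment A was 3767 to 4723 for WT and 911 to 1082 for KEAP1-KO, and all 10 were called lower. That of 10 macrophage markers was 7773 to 10823 and 3568 to 4391 (9 called lower), and that of 8 fibroblast markers was 4862 to 12252 and 1983 to 4854 (2 called lower). Of 6 neutrophil markers 5 were called lower. Of 8 endothelium markers none was called, and their sums overlapped at 1164 to 1338 and 989 to 1382. Of 3 epithelial markers tested, which the carcinoma cells may also express, 2 were called lower, as were both of the 2 tested in cultured KEAP1-KO cells. The part of host cells in the tumor values was not tested. In cultured cells, where the leukocyte sum was 11.5 to 57.7 and Tyrobp and Adgre1 were at 0 in all 12 libraries, the median difference of the members was -0.27, against -0.40 in the tumors. Nusap1 and Ube2c had differences of -0.88 and -0.84 in cells and -0.81 and -0.75 in tumors, whereas Bub1 and Pole had -0.28 and -0.32 in cells and -0.63 and -0.66 in tumors.

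**Figure D4:**
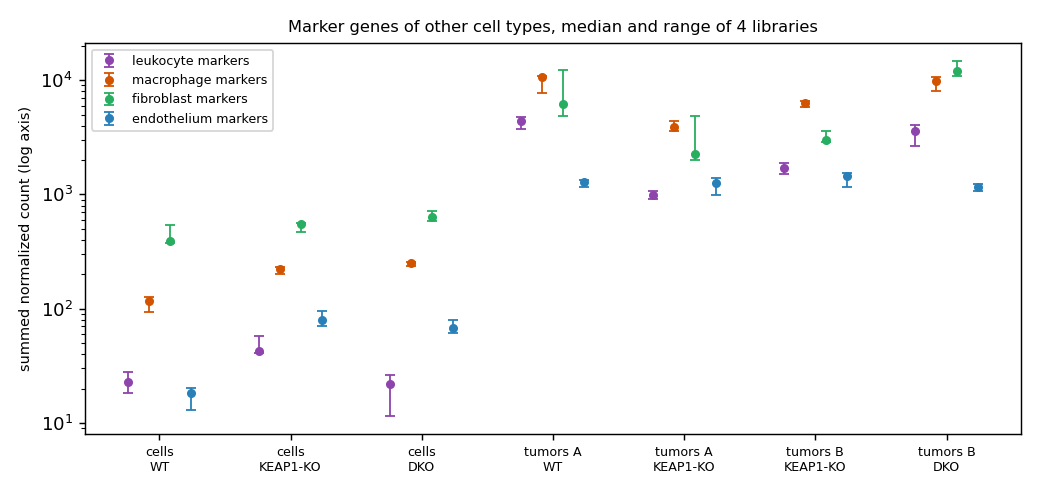
Summed normalized count (log axis) of marker genes of leukocytes, macrophages, fibroblasts and endothelium in the 7 groups, as the median (point) and range (bar) of 4 libraries. Leukocyte markers sum to 11.5 to 57.7 in the cells, to 3767 to 4723 in the WT tumors and to 911 to 1082 in KEAP1-KO tumors of the same experiment.

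Experiment B set DKO against KEAP1-KO tumors. Only 2 of 40 members were called, 1 lower (Bub1) and 1 higher (Ccnd1), where 4.64% of all rows were lower and 4.22% higher. Scaling without the 20 highest rows called Ccnd1 and E2f1 higher and none lower. At an unadjusted p under 0.05, 9 of 40 members passed, against 20.7% of all rows. Bub1 was 9.88, 9.90, 9.66 and 9.81 in KEAP1-KO and 9.46, 9.52, 9.47 and 9.10 in DKO tumors, a difference of -0.43 (SE 0.12, adjusted p = 0.0372). The call was lost in 9 of 19 other settings, among them those without DKO replicate 1, 3 or 4 or without KEAP1-KO replicate 1, 2 or 4. Ube2c was 9.11 to 9.44 in KEAP1-KO and 8.54 to 9.17 in DKO tumors, and Ccnb1 was 9.38 to 9.75 and 8.68 to 9.27. The latter groups did not overlap, yet the Ccnb1 difference of -0.47 was not called (adjusted p = 0.102, limma). Rrm2, Tyms and Mcm5, which rose in DKO cells, differed by 0.08, 0.17 and -0.01 in the tumors and were not called. Over the members the median difference was -0.21, against 0.00 over all rows. Marker sums moved here as well, with leukocyte markers at 1496 to 1893 in KEAP1-KO and 2634 to 4072 in DKO tumors, macrophage markers at 5828 to 6626 and 8051 to 10672 (5 of 10 called higher) and fibroblast markers at 2860 to 3593 and 10804 to 14695. Of 6 neutrophil markers 2 were called higher, and of 3 epithelial markers 1 was called higher and 1 lower. Endothelium sums overlapped, at 1153.1 to 1542.0 in KEAP1-KO and 1079.0 to 1239.4 in DKO tumors. Of 4 skeletal muscle markers tested 2 were called higher in DKO, and the sum over 7 such markers was 67.8 to 269.0 (median 77.5) in KEAP1-KO and 79.3 to 1432 (median 873.8) in DKO tumors. The part of these cells was not tested.

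The test of whether the NRF2 effect differed between tumors and cells called none of the 43 members (limma), against 2.12% higher and 1.55% lower over all rows, and 5 of 43 members had an unadjusted p under 0.05, against 13.9% of all rows. Between the KEAP1-KO tumors of the 2 experiments, which share genotype but differ in flank and experiment, none of the 40 members tested was called (limma), where 0.152% of rows were higher and 0.0117% lower in Experiment B, and 3 members had an unadjusted p under 0.05, against 7.69% of all rows. The estimate was higher in Experiment B for 36 of the 40 (90.0%), with a median difference of 0.14, against 52.3% and 0.01 over all rows. Leaving out single tumors moved the score differences of this comparison. The mitosis score difference of 0.11 became 0.00 with Experiment A replicate 4 left out and 0.26 with replicate 3 left out. The replication score difference of 0.07 became -0.05 with Experiment B replicate 2 left out and 0.21 with Experiment A replicate 3 left out. Of the markers, 3 of 10 for leukocytes and 5 of 10 for macrophages were called higher there.

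DKO tumors of Experiment B were compared with WT tumors of Experiment A, a comparison in which the genotype, the flank and the experiment all change. Here 15 of 40 members were lower and none higher, against 5.99% lower and 4.57% higher over all rows. The lowest among those called were Ube2c (-1.09, adjusted p = 0.000239, limma), with 9.78 to 10.18 in WT and 8.54 to 9.17 in DKO tumors, and Ccnb1 (-1.03, adjusted p = 0.000733, limma), with 9.94 to 10.25 and 8.68 to 9.27. Nusap1 and Bub1 were each lower by a difference of -0.86, Bub1b by -0.84 and Pcna by -0.69. The count was 7 without WT replicate 2, WT replicate 3 or DKO replicate 4, and 8 without DKO replicate 1. The 7 called in each of 18 other settings were Ube2c, Ccnb1, Nusap1, Bub1, Bub1b, Cenpe and Pcna. Leukocyte sums of the 2 groups overlapped, at 3767 to 4723 in WT and 2634 to 4072 in DKO tumors, with 2 of 10 markers called lower. Neutrophil sums did not overlap, at 484 to 1944 and 259 to 332, with 5 of 6 markers called lower. Sums of epithelial markers did not overlap either, at 2611.1 to 3347.5 in WT and 1496.6 to 2140.8 in DKO tumors. Of 8 fibroblast markers 3 were called higher and 1 lower, and of 4 skeletal muscle markers 2 were called higher. Their part was not tested.

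The G1/S regulators showed the strongest rise of the list. Cdkn1a, the gene for the CDK inhibitor p21, had 8.79, 8.71, 8.73 and 8.74 in WT cells, 10.11, 10.37, 10.25 and 10.38 in KEAP1-KO cells and 9.56, 9.58, 9.64 and 9.73 in DKO cells. The 3 groups were far apart, with KEAP1-KO above WT by 1.53 (SE 0.06, adjusted p = 7.03e-09) and DKO below KEAP1-KO by a difference of -0.65 (SE 0.06, adjusted p = 2.26e-05) and above WT by 0.89. In Experiment A the values were 9.32, 9.19, 9.75 and 10.04 in WT and 9.72, 9.81, 9.60 and 9.89 in KEAP1-KO tumors. These overlapped, and the difference of 0.18 was not called. The KEAP1 effect on Cdkn1a was smaller in tumors than in cells by a difference of -1.35 (SE 0.18, adjusted p = 1.18e-05, limma), a call kept in all 26 other settings. In Experiment B, KEAP1-KO tumors had 9.94 to 10.19 and DKO tumors 9.64 to 10.04, which overlapped, and the difference of -0.21 was not called.

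E2f1, which activates replication genes, was 9.71, 9.5, 9.57 and 9.53 in WT cells, 8.95, 8.96, 8.82 and 9.07 in KEAP1-KO cells and 9.10, 9.07, 9.11 and 9.11 in DKO cells. The difference in KEAP1-KO cells was -0.63 (SE 0.06, adjusted p = 1.26e-05), and DKO cells stayed below WT by a difference of -0.48. In Experiment A it was 8.61, 8.98, 8.96 and 8.82 in WT and 8.14, 8.06, 8.39 and 8.13 in KEAP1-KO tumors, a difference of -0.67 (SE 0.09, adjusted p = 0.000127) with the lowest adjusted p of the members in this comparison. In Experiment B the DKO tumors, at 8.59 to 8.84, were above KEAP1-KO, at 8.38 to 8.53, without overlap, but the difference of 0.23 was not called (adjusted p = 0.173, limma).

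Ccnd1, which encodes cyclin D1, the partner of Cdk4 and Cdk6, fell with the loss of KEAP1 and was higher again in DKO, in cells as in tumors. In cells it was 12.54, 12.40, 12.43 and 12.46 in WT, 12.18, 12.31, 12.31 and 12.34 in KEAP1-KO and 12.67, 12.60, 12.73 and 12.79 in DKO, with differences of -0.17 (adjusted p = 0.0308, limma) and 0.41 (adjusted p = 0.000121, limma). In tumors it was 11.82, 11.85, 11.84 and 11.64 in WT and 11.41, 11.25, 11.59 and 11.13 in KEAP1-KO of Experiment A, a difference of -0.44 (SE 0.09, adjusted p = 0.00281). In Experiment B it was 11.70, 11.56, 11.46 and 11.46 in KEAP1-KO and 11.99, 12.04, 11.98 and 11.87 in DKO, a difference of 0.42 (SE 0.09, adjusted p = 0.0055). No groups overlapped in these 4 comparisons. The small fall in cells lost its call in 10 of 19 other settings, and the other 3 calls were kept in all of them. Ccnd1 was also called higher in DKO than in WT cells, by 0.21 to 0.27 over 19 other settings, of which 1 lost the call.

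Ccne1, the gene for cyclin E1, was 7.70 to 7.91 in WT, 7.74 to 8.06 in KEAP1-KO and 7.99 to 8.41 in DKO cells, and DKO cells were above WT cells by 0.45 (SE 0.10, adjusted p = 0.0079). In Experiment A it was 6.95, 7.05, 7.14 and 6.70 in WT and 6.27, 6.26, 6.80 and 6.15 in KEAP1-KO tumors, a difference of -0.59 (SE 0.17, adjusted p = 0.0277) that lost its call in 6 of 19 other settings. The tumor effect was lower than the cell effect by a difference of -0.74 (adjusted p = 0.031, limma), which 13 of 26 other settings did not keep. Its relative Ccne2 lay near the floor and was not called between genotypes.

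**Figure D5:**
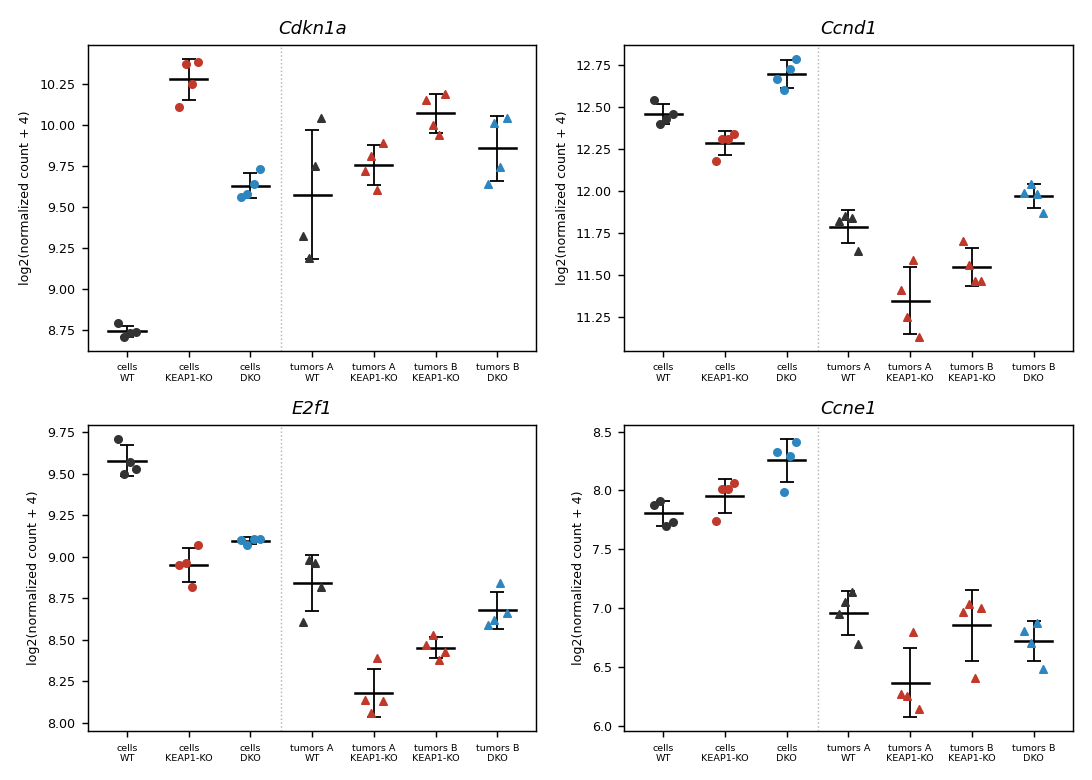
Values per library of 4 regulators of the G1/S step, log2(normalized count + 4), in the 7 groups (circles, cells; triangles, tumors; line and bar, mean and SD). Cdkn1a spans 8.71 to 8.79 in WT cells and 10.11 to 10.38 in KEAP1-KO cells but overlaps between the 2 tumor groups of Experiment A, and Ccnd1 and E2f1 drop from WT to KEAP1-KO in both settings.

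Tumors were compared with cultured cells of their own genotype. Most members were far lower in tumors. Of 43 tested, 31 were lower and 1 higher in WT tumors than in WT cells, against 14.1% lower and 24.7% higher over all rows. For KEAP1-KO, 31 were lower and none higher in Experiment A, against 15.8% and 23.9%, and 30 were lower and none higher in Experiment B, against 14.9% and 23.9%. In DKO tumors 31 were lower and none higher, against 15.9% and 27.6%. The median over the members was -1.20 in WT, -1.37 and -1.21 in KEAP1-KO and -1.37 in DKO, while the median of all rows lay between 0.16 and 0.23, so the members lay further below the rows as a whole than below 0. Under median centring the median of all rows was -0.19 to -0.07, and under scaling without the 20 highest rows 0.37 to 0.52.

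Among mitosis genes 18 of 24 were lower in each of the 4 comparisons. Ccnb1 had differences of -1.69 in WT (adjusted p = 1.84e-10, limma), -1.67 and -1.54 in KEAP1-KO and -1.86 in DKO. In the same order, Aurka, a centrosome kinase, had -1.63, -1.74, -1.67 and -1.83. For Plk1, a kinase of mitotic entry and exit, the differences were -1.49, -1.78, -1.76 and -1.60. Mcm5 was among the lowest replication genes, with differences of -1.67, -1.90, -1.65 and -2.04. Its values were 11.80 to 11.95 in WT cells and 10.09 to 10.30 in WT tumors, and 12.07 to 12.09 in DKO cells and 9.70 to 10.28 in DKO tumors, so the groups were far apart. Tyms was lower by -0.86 in WT and -0.53 in DKO, while its differences of -0.25 and -0.08 in KEAP1-KO were not called. Cdkn1a was the single member called higher in WT tumors than in WT cells (0.83, adjusted p = 5.57e-06, limma), and it was lower in KEAP1-KO tumors of Experiment A than in KEAP1-KO cells (-0.52, adjusted p = 0.0016, limma). Host markers rose in the same comparisons, with all 10 leukocyte and all 8 fibroblast markers called higher in WT tumors than in WT cells. Dilution of tumor cell RNA by host cells was not tested. Under quantile normalization the mitosis score still differed by -0.78 to -0.92, but 4 called differences turned. Ccnd1 went from -0.67 to 0.03 in WT and from -0.73 to 0.06 in DKO, E2f1 from -0.42 to 0.05 in DKO, and Cdkn1a from -0.52 to 0.00 in KEAP1-KO of Experiment A. Scaling without the 20 highest rows gave 0.03 for E2f1 in DKO.

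Further genes of the same processes were taken from lists of known members, with 61 of mitosis, 55 of replication and 26 of the G1/S step with RB and E2F found in the table. Of the 58 mitosis genes tested in cells, 31 fell and 1 rose in KEAP1-KO, against 7.33% lower and 8.13% higher over all rows, with a median of -0.38. The lowest were Smc2, a condensin subunit (-1.61), Ect2, a regulator of cytokinesis (-1.06), and Pimreg (-0.77). In Experiment A 18 of 58 fell and none rose, against 7.49% and 5.61% over all rows, with a median of -0.54 (30 fell with KEAP1-KO tumor replicate 3 left out), led by Mybl2, the gene for B-MYB (-1.08), the actin-binding cytokinesis protein Anln (-0.91) and Spc25, a partner of Ndc80 (-0.82). In DKO against KEAP1-KO cells, where 3.98% of all rows were higher and 4.85% lower, 2 rose and 11 fell, led by Smc2, which rose by 0.83, and Hmmr, which fell by 0.51. In DKO against KEAP1-KO tumors none of 58 was called (limma), and 8 had an unadjusted p under 0.05, against 20.7% of all rows.

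Of 51 further replication genes tested in cells, 23 fell and 3 rose in KEAP1-KO, with a median of -0.30, again against 7.33% and 8.13% over all rows. Wdhd1, a protein of the replication fork, fell by 0.79 and the maintenance DNA methyltransferase Dnmt1 by 0.74. In Experiment A 16 of 50 fell and 1 rose, against 7.49% and 5.61%, with a median of -0.50, and without the same tumor 25 fell and none rose. Wdhd1 fell by 1.20 and the helicase component Cdc45 by 1.08. In DKO against KEAP1-KO cells 7 of 51 rose and 4 fell, against 3.98% and 4.85%. In the tumors 2 of 50 rose and 2 fell, which is near the 4.22% and 4.64% of all rows. Cdc45 rose in both, by 0.51 in cells and 0.64 in tumors. In WT tumors against WT cells 39 of 54 fell and none rose, against 14.1% and 24.7%.

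Of 22 further G1/S genes tested, 9 fell and none rose in KEAP1-KO cells (7.33% and 8.13% over all rows), led by the CDK inhibitor Cdkn2c (-1.14), the repressor E2f7 (-0.91) and Cdk2 (-0.90). In Experiment A 3 of 22 fell and 1 rose, where 7.49% of all rows were lower and 5.61% higher (4 and 1 without that tumor), led by Ccnd2 (-1.95), a cyclin D that leukocytes and other host cells also express, and Cdkn2c (-0.69). In DKO against KEAP1-KO, 8 of the 22 had an unadjusted p under 0.05 in cells and 6 in tumors (limma, either direction), against 19.6% and 20.7% of all rows. Among them Myc, a driver of growth, fell by 0.79 in cells and by 0.78 in tumors. Cdkn1a is also a target of p53, and of 14 p53 target genes tested in cells 4 rose (Cdkn1a among them, with Aen at 0.91 and Tnfrsf10b at 0.75) and 2 fell in KEAP1-KO, a median of 0.34, where 8.13% of all rows were higher and 7.33% lower. In Experiment A 3 of 18 rose and 3 fell, against 5.61% higher and 7.49% lower, with Trp53inp1 at 3.82 and Btg2 at -2.14.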

How the data were processed

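RNA sequencing values of 28 libraries were used, 16 tumors and 12 cultured cell samples, with groups taken from the sample labels. According to the methods of the study, ribosomal RNA was removed, reads were quantified with Salmon against GENCODE mouse transcripts and iDEP was used downstream. The authors deposited log2 values of the form log2(normalized count + 4), and undoing the transform gave whole reads (within 0.05 reads) for 100% of the low values checked. The methods speak of TPM, which these values are not, and how a row with a symbol was summed is not given in the sources used here. No column of values was left unused (0). The extraction protocol in the labels names livers, and the study's description of tumors and cells was followed.

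A row entered a fit if it reached 5 normalized counts in 4 or more of its libraries. The tests came from limma 3.58.1 run in R 4.3.3 (two-sided, eBayes with trend, group as the only factor), with Benjamini-Hochberg adjustment over all rows tested and a threshold of 0.05. The 16 tumors, the 12 cell libraries and all 28 libraries formed 3 fits. A call means an adjusted p under that threshold. The code was checked on simulated log2 values. The members and gene lists were chosen with earlier results of these data known, so scores and lists are given as counts and medians with no test. All members are named. Of each further list, up to 3 called genes with the largest difference in a comparison are named. A gene with several rows would have been read in its gene row, else in its highest row. Transcripts without a symbol were matched to genes through GENCODE vM21. Motifs and figures used Python 3.11.15. Alternatives were another pseudocount (0.4), other filters, scalings and variance models, the replicate number as a block and each library left out. The sum of all rows of a gene, the scores over members with a mean of at least 5, and the counts of the further lists without 1 tumor, were added after the data were seen.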

Additional observations from a re-analysis of the deposited data

Results flagged for a closer look

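Among the 31 members with a mean of at least 5 and the 2 scores, 231 sets of 4 libraries were searched for a library far from the other 3, and 17 held one. Chance gives about 1 in 20. The 12 members near the floor were not searched.

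In tumors, replicate 3 of KEAP1-KO in Experiment A was the highest for Ccnb2 (10.01, others 9.23 to 9.30), Mcm2 (10.46, others 9.71 to 9.80), Mcm7 (10.08, others 9.53 to 9.57) and Pole (9.57, others 8.83 to 8.91). Replicate 4 of DKO was the lowest for Bub1 (9.10, others 9.46 to 9.52), Nusap1 (8.25, others 8.84 to 8.88) and Ndc80 (7.37, others 8.06 to 8.18). Replicate 4 of WT was the lowest for Mcm2 (10.03, others 10.26 to 10.29) and Ccnd1 (11.64, others 11.82 to 11.85). Replicate 3 of KEAP1-KO in Experiment B was the lowest for Ccne1 (6.41, others 6.97 to 7.04).

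In cells, replicate 1 of KEAP1-KO was the lowest for Bub1 (11.09, others 11.21 to 11.22), Plk1 (10.92, others 10.98) and Ccne1 (7.74, others 8.01 to 8.06). Replicate 1 of WT was the highest for Bub1 (11.59, others 11.40 to 11.43) and stood at no reads for Kif20a (2.0, others 7.18 to 8.15). In DKO, replicate 2 was the highest for Aurka (10.59, others 10.50 to 10.51) and replicate 4 for Cdc20 (11.50, others 11.38 to 11.40).

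The difference of KEAP1-KO from WT was compared between tumors and cells by a test in limma. It called 2 of 43 members, both lower, against 3.88% lower and 1.5% higher over all rows. These were Cdkn1a (-1.35, adjusted p = 1.18e-05) and Ccne1 (-0.74, adjusted p = 0.031), and the Ccne1 call was not kept in all other settings. Leaving out single libraries gave counts of 1 to 6.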

How the results depend on the processing

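In cells, and in tumors against cells, the counts of called members kept within 1.5 times of the values given, except that the variance model without a trend called 6 in DKO against KEAP1-KO (4 higher and 2 lower, in place of 5 and 9). In tumors, leaving out 1 library gave 9 to 22 for KEAP1-KO against WT, 1 to 2 for DKO against KEAP1-KO and 7 to 15 for DKO against WT, and 1 to 6 for the KEAP1 effect in tumors minus cells. Without the trend these became 7 for DKO against WT, 1 for DKO against KEAP1-KO and 1 for the KEAP1 effect. Quantile normalization gave 1 for DKO against KEAP1-KO tumors, and scaling without the 20 highest rows gave 8 for DKO against WT tumors. The cause was not tested.

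No call on a single member turned its direction when 1 library was left out (1664 calls kept, 120 lost). With all rows of a gene summed, an alternative chosen after seeing the data, 220 calls were kept and 1 was lost. Under quantile normalization, 4 called differences of tumors against cells turned: Ccnd1 (-0.67 became 0.03 in WT, -0.73 became 0.06 in DKO), E2f1 (-0.42 became 0.05 in DKO) and Cdkn1a (-0.52 became 0.00 in KEAP1-KO of Experiment A). Scaling without the 20 highest rows turned E2f1 in DKO (0.03).

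The replicate numbers were not used to pair the samples. The correlations of same-numbered samples lay between -0.032 and 0.033, and whether same-numbered tumors shared a mouse is not given in the sources used here. With the replicate block the counts were 16, 3, 20, 13 and 26 for KEAP1-KO against WT tumors, DKO against KEAP1-KO tumors, and in cells KEAP1-KO against WT, DKO against KEAP1-KO and DKO against WT. For the effects in tumors minus cells the replicate block gave 3 (KEAP1) and 0 (NRF2). In DKO against WT cells each library correlated best with its own number, a hint from the data only. The block was not fitted for the remaining comparisons, whose groups come from different experiments or set tumors against cells.

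Scores moved more, and the cause was not tested. For the replication score, KEAP1-KO against WT cells became 0.13 with a pseudocount of 0.4, -0.42 as a median and -0.29 over members with a mean of at least 5. DKO against KEAP1-KO cells became 0.43 as a median. DKO against WT cells became 0.35 with the other pseudocount and 0.01 as a median, and turned to -0.06 over all rows and -0.09 over members with a mean of at least 5. The mitosis score of DKO against KEAP1-KO cells became -0.38 with the other pseudocount and -0.11 as a median.

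For tumors against cells, in the order WT, KEAP1-KO of Experiments A and B, and DKO, the mitosis score stayed below 0. Quantile normalization gave -0.78, -0.92, -0.81 and -0.80, scaling without the 20 highest rows -0.80, -0.96, -0.83 and -0.81, the median over members -1.42, -1.58, -1.52 and -1.62, and all rows -0.74, -0.84, -0.74 and -0.70. Median centring gave -1.52 in WT, -1.42 in KEAP1-KO of Experiment B and -1.56 in DKO, and members with a mean of at least 5 gave -1.40 in the former edited group and -1.48 in DKO. The replication score with scaling without the 20 highest rows was -0.54, -0.77, -0.68 and -0.81. Quantile normalization gave -0.66 in WT and -0.95 in DKO, median centring -1.23 in WT, -1.23 in KEAP1-KO of Experiment B and -1.54 in DKO. The other pseudocount gave -1.27, -1.29 and -1.45 in the 3 edited groups, and the median -0.68, -0.49 and -0.88. Members with a mean of at least 5 gave -1.26 in WT, -1.38 in KEAP1-KO of Experiment A and -1.45 in DKO, and all rows gave -0.64 in KEAP1-KO of Experiment B and -0.76 in DKO. For the 12 members near the floor, few reads limit what can be detected in the row with the symbol.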
